A study of Drosophila melanogaster with 9 samples.

Results

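Mitochondrial ribosomal protein genes were taken as all genes of the deposited table whose symbol began with mRpL or mRpS and a number, and 71 of 10372 genes met this rule. By their names, 45 encode proteins of the large subunit (mRpL) and 26 encode proteins of the small subunit (mRpS). The mitochondrial ribosome translates the few messenger RNAs of the mitochondrial genome, which encode core subunits of the respiratory chain and of ATP synthase. All of its proteins are encoded in the nucleus, made by cytosolic ribosomes and imported, while its ribosomal RNAs come from the mitochondrial genome. The small subunit decodes the message and the large subunit forms peptide bonds next to the inner membrane. Some of its proteins descend from those of the bacterial ribosome, and others were added during the evolution of mitochondria.

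RNA was sequenced after depletion of ribosomal RNA in fat bodies, an organ of the larva that holds its fat and glycogen stores, of female Drosophila melanogaster larvae feeding in the middle of the third instar. All 3 groups carried hs-GAL4, a driver that makes the yeast activator GAL4 after heat shock, from their mothers, and each group had 3 libraries. In control_HS the fathers came from stock 6598 (y1w1118 in the series' design) and the larvae were heated to 37 °C for 30 min. In InRCA_HS the fathers came from stock 8263, which carries UAS-InR.A1325D, a transgene that GAL4 switches on and that encodes an always active form of the insulin receptor, and the larvae were heated in the same way. InRCA_noHS larvae had the genotype of InRCA_HS but were moved to a new vial without heat and kept at 25 °C. Fat bodies were isolated by shearing and centrifugation after 6 h of recovery. A heat shock promoter is active in most larval cells, so the receptor was not restricted to the fat body. An unheated control cross was not analysed here, so InRCA_noHS differed from control_HS by both cross and heat, and from InRCA_HS by both heat and the receptor it induced. InRCA_HS and control_HS were both heated but differed by cross as well as by the induced receptor, and these cannot be told apart between them. Whether libraries of a group stem from different cultures or animals is not in the labels, so the p-values cover library-to-library spread and this may be technical.

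Values are adjusted counts, that is reads per gene that the authors had adjusted to a common library size. Whole reads recovered from them summed to 8764264 to 17599628 per library. InR, the targeted gene, had adjusted counts of 743 to 826 in control_HS, 1821 to 3662 in InRCA_noHS and 47774 to 66688 in InRCA_HS, which follows the labels. Of 8 fat body markers, 7 were in the table. Their sum was 3623871 to 4067151 in control_HS, 2728466 to 4119090 in InRCA_noHS and 2723310 to 3540221 in InRCA_HS. The InRCA_HS sums thus lay below those of control_HS, and those of InRCA_noHS overlapped both. Among the 7, Fbp2 went the other way, with 6081 to 10683 in control_HS, 122650 to 198420 in InRCA_noHS and 104160 to 155030 in InRCA_HS. Fbp1 was also higher in InRCA_noHS (1014800 to 1479100) than in control_HS (707450 to 949350). In InRCA_HS it overlapped control_HS (808120 to 981400). Markers of other cells were present too. The 8 salivary gland markers in the table, mostly glue protein genes, summed to 14526 to 40606 in control_HS, 33572 to 105395 in InRCA_noHS and 58641 to 180823 in InRCA_HS. The 12 muscle markers summed to 38026 to 72931, 23425 to 38011 and 32586 to 36751 in the same order. The sums of the 10 gut markers in the table overlapped between all groups. The 6 neuronal markers summed to 3002 to 4412 in InRCA_HS against 5225 to 7971 in control_HS and 5655 to 6716 in InRCA_noHS. Most of this sum was Syt1, with 2202 to 3597 in InRCA_HS, 4446 to 7184 in control_HS and 4766 to 5836 in InRCA_noHS. Each of the other neuronal markers overlapped between InRCA_HS and control_HS. The 8 hemocyte (blood cell) markers summed to 6099 to 7196 in InRCA_noHS, below the 11734 to 21224 of the heated groups. None of the values in the table was 0. In whole tissue, fewer cells of a type and less RNA per cell cannot be told apart.

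The 71 genes were expressed at low to moderate levels. All of them passed the filter on low values (a mean of at least 1), and 69 had at least 10 recovered reads in every library. Their mean adjusted count over the 9 libraries ran from 17.7 to 397 with a median of 99.0, against a median of 157 for all genes. Together they took 0.0532% to 0.0769% of the reads of a library. Per kilobase of exon, using exon lengths from the current Drosophila annotation, the median of the members was 116 adjusted counts, with 115 for large and 122 for small subunit genes. The median was 74.3 over the 9930 genes that had a length, 570 for nuclear genes of the respiratory chain and 12855 for cytosolic ribosomal protein genes. Levels per kilobase differed 11.4-fold between the highest and the lowest member.

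**Figure D1:**
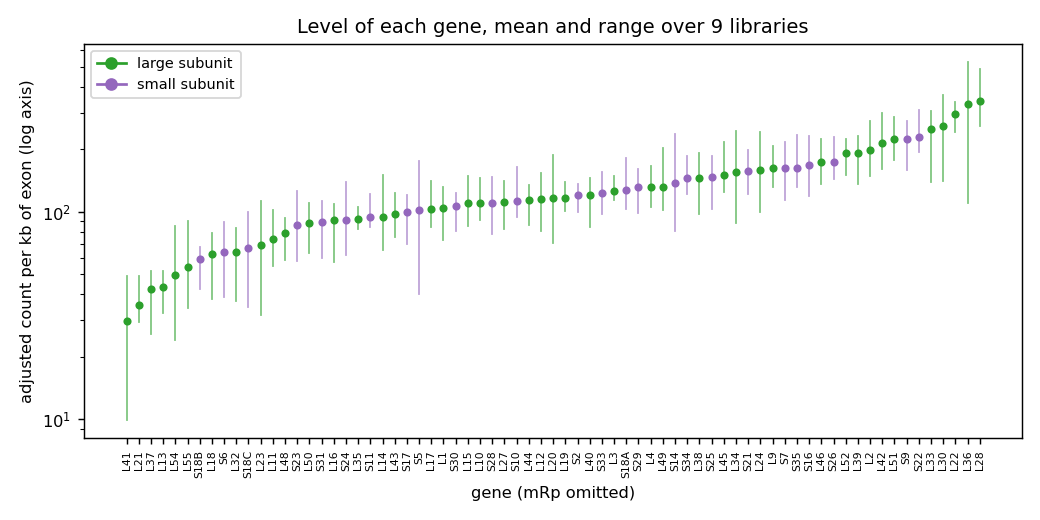
Adjusted count per kilobase of exon (log axis) of the 71 mitochondrial ribosomal protein genes, ordered by level, with the point at the mean and the line from the lowest to the highest of the 9 libraries. Large and small subunit genes are mixed along the order, from mRpL41 at 29.8 to mRpL28 at 340, and the line of mRpL36 is among the long ones.

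Among large subunit genes, mRpL28 (340 per kilobase), mRpL36 (331) and mRpL22 (296) had the highest levels per kilobase. All 3 have counterparts in the bacterial ribosome, and the counterpart of mRpL22 lines the tunnel through which the new peptide leaves. The lowest large subunit levels per kilobase were those of mRpL37 (42.4), mRpL21 (35.6) and mRpL41 (29.8). mRpL37 and mRpL41 are mitochondria-specific proteins. The values of mRpL41 rested on 3 to 28 recovered reads per library, so its counting error was large. Among small subunit genes, mRpS22 (230 per kilobase), mRpS9 (225) and mRpS26 (174) were highest, and mRpS18C (67.0), mRpS6 (64.0) and mRpS18B (59.4) were lowest. Neighbours in this order, such as mRpS18C, mRpS6 and mRpS18B, overlapped in their range over the libraries.

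The summed level of the family differed little over the 9 libraries. The sum of adjusted counts of the 71 genes was 7078, 9188 and 8249 in control_HS, 7632, 9038 and 8071 in InRCA_noHS, then 7949, 8295 and 7519 in InRCA_HS. The groups overlapped, and the highest library was 1.3 times the lowest. On the log2(adjusted count + 1) scale the mean level of the members was 6.52 ± 0.175 in control_HS, 6.62 ± 0.165 in InRCA_noHS and 6.55 ± 0.0693 in InRCA_HS (SD, n = 3). Within a group a member's libraries varied with a median coefficient of variation of 16.4%, against 18.7% for all genes. The lowest library mean (6.34) was that of control_HS replicate 1 and the highest (6.78) that of InRCA_noHS replicate 2.

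**Figure D2:**
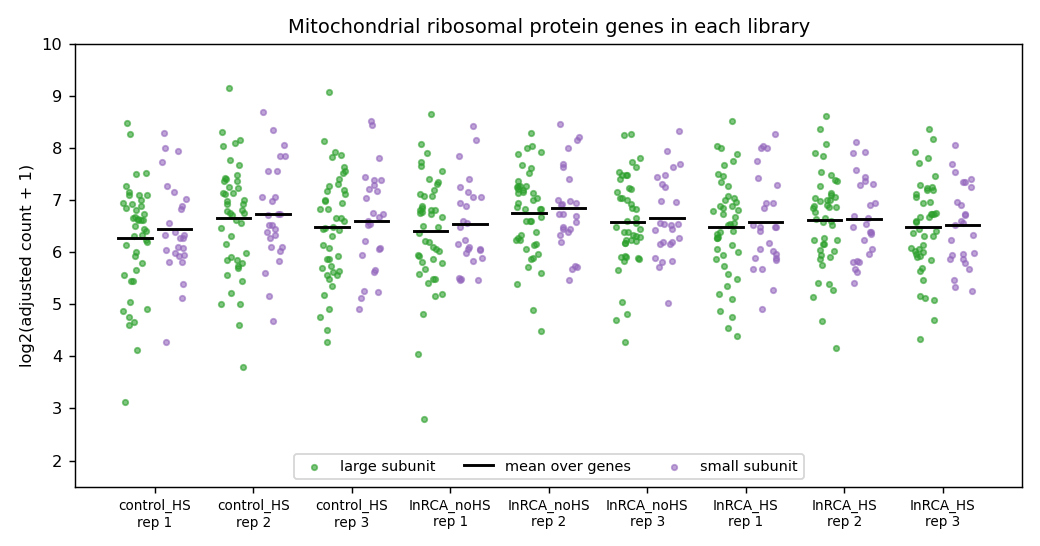
Level of each large subunit gene (green) and small subunit gene (purple) in each of the 9 libraries, as log2(adjusted count + 1), with a black line at the mean over genes. The means over all members lie between 6.34 and 6.78 and the groups overlap.

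Many members varied together from library to library. Over the 9 libraries, which fall into 3 groups and share the scaling of each library, Pearson's correlation of a member with the mean of the other members had a median of 0.46 and was above 0 for 64 of 71 members. For the 10301 other genes, the correlation with the mean of the members had a median of 0.05 and was above 0 in 57.3%. Large subunit genes followed the mean of the small subunit with a median of 0.47, and small subunit genes followed the mean of the large subunit with a median of 0.36. The 3 members least like the rest were mRpL22 (−0.22), mRpS2 (−0.16) and mRpL35 (−0.13). mRpS2 had 117, 125 and 91.8 adjusted counts in control_HS, 122, 106 and 92.7 in InRCA_noHS, then 114, 123 and 119 in InRCA_HS, so it varied little at all.

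**Figure D3:**
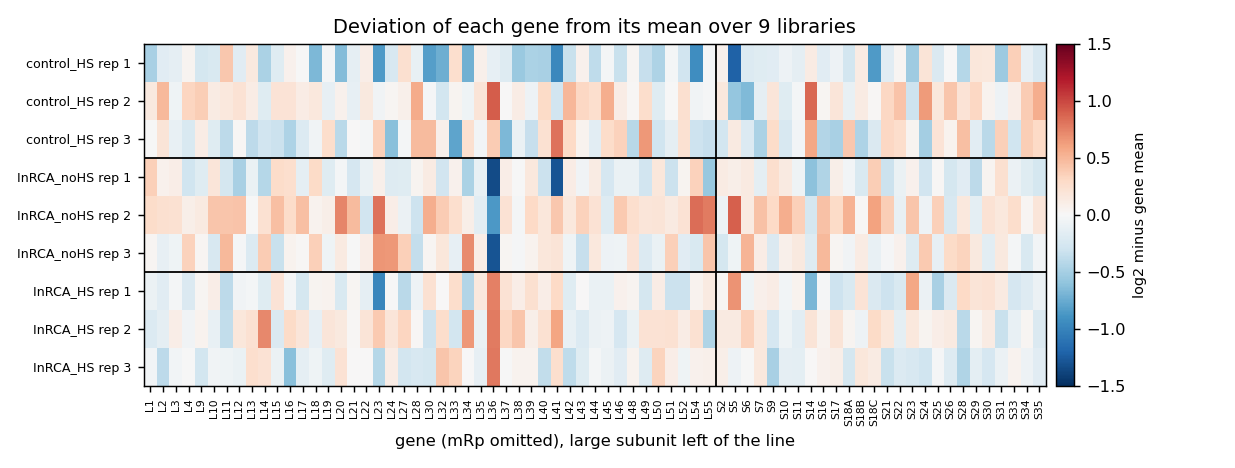
Deviation of each of the 71 genes from its own mean over the 9 libraries, in log2 units from −1.5 (blue) to 1.5 (red), with libraries in rows and the large subunit to the left of the vertical line. The column of mRpL36 is blue in the 3 InRCA_noHS libraries and red in the 3 InRCA_HS libraries, and most other columns are pale.

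The comparison named by the series is InRCA_HS against control_HS. Both groups were heated, and they differ by cross as well as by the induced receptor. None of the 71 members passed the threshold in either direction (adjusted p under 0.05 in limma, a linear model of log2 values fitted to all genes and with Benjamini-Hochberg adjustment for all 10372). Among all genes, 1.11% were called higher and 1.32% lower, so that a count of 0 among 71 is near this background. The quasi-likelihood test of edgeR on recovered reads also called 0 members, where its background was 1.14% higher and 1.56% lower, and DESeq2 called 0 as well (background 3.3% and 4.58%). At an unadjusted p under 0.05 there were 5 members in limma (7.04%), against 18.3% of all genes, with 4 in edgeR and 5 in DESeq2. Log2 fold changes of the members ran from −0.68 to 0.80 with a median of 0.00, which is also the median of all genes. For 60 of the 71 (84.5%) the 95% confidence interval of the change lay within 2-fold in either direction, which held for 58.6% of all genes. The 3 libraries of InRCA_HS lay all above those of control_HS for 7 members and all below for 3, where the background was 9.53% and 11% of all genes.

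The members with the smallest p in this comparison were of both subunits and moved both ways. mRpS22, a mitochondria-specific protein of the small subunit, had 311, 413 and 366 adjusted counts in control_HS and 261, 277 and 266 in InRCA_HS. The groups did not overlap, and the log2 fold change was −0.43 (SE 0.16, limma adjusted p = 0.170). mRpL50, a mitochondria-specific protein of the large subunit, had 46.5, 56.8 and 52.1 in control_HS and 69.3, 74.8 and 81.6 in InRCA_HS. Its groups did not overlap either (log2 fold change 0.53, SE 0.20, limma adjusted p = 0.193). mRpL39, also specific to mitochondria, had 154, 203 and 168 in control_HS and 254, 228 and 222 in InRCA_HS, again without overlap (0.43, SE 0.17, limma adjusted p = 0.200). mRpL50 and mRpL39 were named after their values were seen.

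The highest log2 fold changes of this comparison, whatever the p, were those of mRpS5, mRpL14, mRpL54 and mRpL32. mRpS5, whose bacterial counterpart lies where the message enters the small subunit, had 67.8, 106 and 174 adjusted counts in control_HS and 254, 174 and 151 in InRCA_HS. These ranges overlap, and the log2 fold change of 0.80 (SE 0.36) had a limma adjusted p of 0.267. mRpL14 ranged from 42.6 to 52.2 in control_HS and from 52.4 to 98.5 in InRCA_HS, without overlap, and did not pass the test (0.57, limma adjusted p = 0.340). The changes of mRpL54 (0.54) and mRpL32 (0.54) had limma adjusted p-values of 0.434 and 0.349. At the other end stood mRpS14 (−0.68), mRpS22, mRpL28 (−0.40) and mRpL2 (−0.40), with limma adjusted p-values of 0.224, 0.170, 0.328 and 0.323. The bacterial counterpart of mRpL2 sits beside the centre that forms peptide bonds. mRpL2 had 180, 284 and 233 adjusted counts in control_HS and 181, 185 and 155 in InRCA_HS, which overlap only through control_HS replicate 1.

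Large and small subunit genes differed little. Their median log2 fold changes in InRCA_HS against control_HS were 0.03 and −0.05, with 25 of 45 large and 11 of 26 small subunit genes above 0. In each library the mean log2 level of the large subunit lay slightly below that of the small, by −0.19, −0.09 and −0.12 in control_HS, −0.14, −0.10 and −0.09 in InRCA_noHS, then −0.10, −0.02 and −0.02 in InRCA_HS. The InRCA_HS range overlapped those of the other groups. The difference was −0.13 ± 0.0516 in control_HS, −0.11 ± 0.0254 in InRCA_noHS and −0.05 ± 0.0459 in InRCA_HS (SD, n = 3). The difference between the median fold changes of the subunits was 0.08 in InRCA_HS against control_HS and 0.02 without control_HS replicate 1. It was 0.04 in InRCA_HS against InRCA_noHS. In InRCA_noHS against control_HS it was 0.12, and 0.01 without control_HS replicate 3 or without InRCA_noHS replicate 3. In mammalian structures the proteins named mRpS30 and mRpS18A belong to the large subunit. Counting both as large left these differences at 0.08, 0.04 and 0.12.

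By number, 42 members carry a number also used for bacterial ribosomal proteins (up to L36 and S21) and 29 carry a higher number, used mostly for proteins specific to mitochondria. In InRCA_HS against control_HS their median log2 fold changes were 0.08 and −0.08. In the small subunit the 14 genes with the lower numbers had a median of 0.11 and the 12 with higher numbers a median of −0.20, with 10 of the 12 below 0. The numbers are not a strict guide, since the mammalian counterparts of mRpS24 and mRpL55 have bacterial relatives. With these counted among the lower numbers, the small subunit medians were 0.10 and −0.19, with 9 of 11 higher-numbered genes below 0. Besides mRpS22, the genes below 0 included mRpS35, mRpS34 and mRpS28, at −0.36, −0.29 and −0.26, and none of them passed the test. In the large subunit the medians were 0.01 (28 genes with lower numbers) and 0.05 (17 with higher numbers). In InRCA_noHS against control_HS, which shares the control libraries, the small subunit medians were 0.24 (lower numbers) and −0.05 (higher numbers). There 10 of the 12 higher-numbered genes lay below the all-gene median of 0.12. In InRCA_HS against InRCA_noHS these medians were −0.16 and −0.12, beside −0.14 for all genes. Exons of 41 members overlap those of another gene in the current annotation, for 40 of them a gene on the opposite strand, and a use of strand in counting is not given in the sources used here. The median change in InRCA_HS against control_HS was −0.04 for these 41 and 0.09 for the 30 members without such an overlap.

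In InRCA_HS against InRCA_noHS, which share a genotype and differ by heat and the receptor, 1 of 71 members was called higher (1.41%) and 0 lower, where the background was 1.75% and 0.8% of all genes. The common size behind the adjusted counts was estimated from recovered reads with TMM scaling. It was 13257589 to 13481701 reads in the unheated group and 12271915 to 12321014 reads in the heated groups. The median log2 fold change of all genes was −0.14 here and 0.12 in InRCA_noHS against control_HS. TMM scaling itself draws on the bulk of genes, so the estimated sizes are not independent of these medians. The members' median of −0.11 was 0.03 above that of all genes. In edgeR on recovered reads 1 member was called higher and 0 lower, against 2.27% and 0.511% of all genes, DESeq2 made the same counts against 4.19% and 1.2%, and the edgeR median was −0.01 for the members and −0.02 for all genes. The confidence interval lay within 2-fold for 65 of 71 members, against 60.3% of all genes. Libraries of InRCA_HS lay all above those of InRCA_noHS for 2 members and all below for 8, where the background was 7.52% and 15.8%.

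The member that passed was mRpL36 (FBgn0042112, chromosome arm 3L), whose bacterial counterpart is a small zinc-binding protein of the large subunit. The control_HS libraries held 128, 261 and 182 adjusted counts of it, those of InRCA_noHS 54.4, 76.0 and 55.9 and those of InRCA_HS 236, 240 and 241. All 3 unheated libraries lay below all 6 heated ones, and the InRCA_HS libraries were nearly equal. The group means were 190 ± 66.8, 62.1 ± 12.1 and 239 ± 2.92 (SD, n = 3). mRpL36 rose 3.84-fold in InRCA_HS against InRCA_noHS (log2 fold change 1.94, SE 0.25, 95% interval 1.38 to 2.5, limma adjusted p = 0.00321, edgeR adjusted p = 0.00264). It was 2.94-fold lower in InRCA_noHS than in control_HS (log2 fold change −1.56, 95% interval −2.12 to −1, limma adjusted p = 0.00633, edgeR adjusted p = 0.00444). Between the heated groups the log2 fold change was 0.39 (95% interval −0.17 to 0.94, limma adjusted p = 0.466). These comparisons share libraries, InRCA_noHS in the first pair. Recovered reads of mRpL36 ran from 34 to 349 per library, and its exons overlap those of no other gene in the current annotation.

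The genes on either side of mRpL36 were looked at after its values had been seen. CG7550 (FBgn0035839) lies next to it. It had 317, 520 and 344 adjusted counts in control_HS, 229, 135 and 208 in InRCA_noHS, then 392, 467 and 387 in InRCA_HS, so its unheated libraries were also the 3 lowest. CG7550 rose 2.22-fold in InRCA_HS against InRCA_noHS (log2 fold change 1.15, limma adjusted p = 0.0324) and was 2.06-fold lower in InRCA_noHS than in control_HS (−1.04, limma adjusted p = 0.0295). Uba2, which encodes a subunit of the SUMO-activating enzyme and lies on the other side, had means of 877 ± 27.0, 947 ± 93.0 and 841 ± 81.1 (SD, n = 3) in control_HS, InRCA_noHS and InRCA_HS. Its log2 fold change was −0.17 in InRCA_HS against InRCA_noHS (limma adjusted p = 0.621), and its groups overlapped. The summed hemocyte markers were lower in each of the 3 unheated libraries than in the 6 heated ones, as mRpL36 was. Gene by gene this held for 3 of the 8 markers, Cg25C, vkg and Hml, and the other 5 overlapped a heated group. It also held for 1 of 12 muscle and 1 of 8 salivary gland markers, and for 0 of the fat body, gut and neuronal markers. Of all genes, 7.52% had InRCA_noHS all below InRCA_HS and 10.4% had it all below control_HS. The share with both was not counted. Hml, a hemocyte gene, had 873 to 1297 adjusted counts in InRCA_noHS, 1305 to 2788 in control_HS and 1302 to 2805 in InRCA_HS. Cg25C and vkg encode collagens and are also expressed by the fat body. The part of hemocytes, or of reads shared with CG7550, in the values of mRpL36 was not tested.

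**Figure D4:**
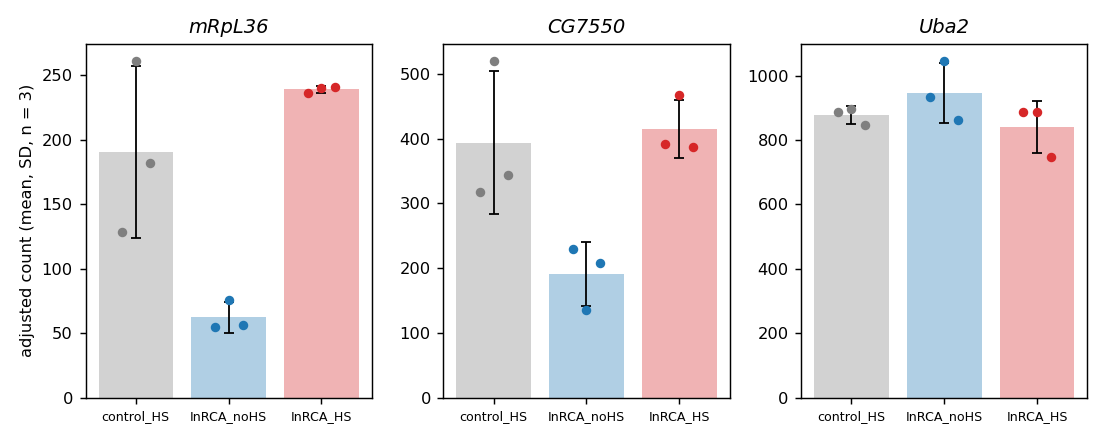
Adjusted counts of mRpL36 and the genes next to it in each library (points), with group means (bars) and SD (n = 3). mRpL36 and CG7550 are low in all 3 unheated InRCA_noHS libraries (means of 62.1 and 191), and Uba2 is not (mean of 947).

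The other members at the ends of InRCA_HS against InRCA_noHS did not pass the test. mRpL23, whose bacterial counterpart lies at the exit of the peptide tunnel, had 47.1, 79.1 and 71.2 adjusted counts in InRCA_noHS and 22.2, 58.8 and 32.9 in InRCA_HS, with overlap (log2 fold change −0.85, limma adjusted p = 0.363). mRpL11 (−0.49), mRpL30 (−0.34) and mRpS10 (−0.34) followed, with limma adjusted p-values of 0.468, 0.656 and 0.465. The bacterial counterpart of mRpL11 is part of the base to which translation factors bind. On the higher side after mRpL36 came mRpL41 (0.61), mRpL13 (0.25) and mRpL38 (0.21), with limma adjusted p-values of 0.642, 0.695 and 0.678. For 0 members was InRCA_HS past the threshold on the same side of both other groups.

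In InRCA_noHS against control_HS, 0 members were called higher and 1, mRpL36, was called lower (1.41%), where the background was 3.25% and 3.78% of all genes. The edgeR test made the same counts of 0 and 1, against 2% and 5.36% of all genes, and DESeq2 called 0 higher and 2 lower, mRpL36 and mRpS14, against 3.59% and 7.7%. The members' median log2 fold change was 0.13, against 0.12 for all genes. At an unadjusted p under 0.05 limma gave 9 members (12.7%), against 23.7% of all genes. The interval lay within 2-fold for 56 members, against 54.7% of all genes. Libraries of InRCA_noHS lay all above those of control_HS for 6 members and all below for 3, where the background was 17.2% and 10.4%. Without control_HS replicate 1, the library with the lowest mean of the members, 4 members were called lower, namely mRpL36, mRpS14, mRpL28 and mRpL45. Without that library the counts of the other comparisons stayed at 0 and 1.

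mRpS14 (FBgn0044030, chromosome X), a small subunit protein with a bacterial counterpart, stood closest to the threshold. It had 113, 189 and 155 adjusted counts in control_HS, 67.3, 86.3 and 90.5 in InRCA_noHS, then 64.0, 119 and 104 in InRCA_HS. The unheated transgene libraries lay below all controls, and the heated ones overlapped them. The log2 fold change of −0.88 in InRCA_noHS against control_HS had a limma adjusted p of 0.0837 and an edgeR adjusted p of 0.0511. DESeq2 gave an adjusted p of 0.0150, and without control_HS replicate 1 the limma adjusted p was 0.0353. Exons of mRpS14 overlap those of Naa15-16 on the opposite strand and CG32533 on the same strand, so its reads may be shared. mRpL28, the member with the highest level, had 359, 572 and 538 in control_HS, 401, 312 and 304 in InRCA_noHS, then 368, 394 and 330 in InRCA_HS (log2 fold change −0.51 in InRCA_noHS against control_HS, limma adjusted p = 0.157). mRpL45, whose mammalian counterpart lies where the ribosome meets the inner membrane, had 183, 274 and 226 in control_HS and 157, 164 and 177 in InRCA_noHS (−0.44, limma adjusted p = 0.171). On the higher side were mRpS5 (0.86), mRpL54 (0.75), mRpL23 (0.70) and mRpS18C (0.64), with limma adjusted p-values of 0.177, 0.203, 0.328 and 0.244.

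A few mitochondrial ribosomal proteins have symbols that do not begin with mRp. None of the 4 in the table, tko, bonsai, CG7172 (CRIF in the current annotation) and Rlc1 (mRpL47), passed the test in any comparison. tko encodes the protein of the decoding centre, and its mutation causes bang sensitivity in flies. It had 92.1, 94.0 and 81.7 adjusted counts in control_HS, 106, 213 and 150 in InRCA_noHS, then 110, 116 and 95.7 in InRCA_HS. All unheated libraries lay above the controls, with a log2 fold change of 0.75 (limma adjusted p = 0.0951) in InRCA_noHS against control_HS and of 0.26 (limma adjusted p = 0.639) between the heated groups.

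In lists drawn up for genes that work with the mitochondrial ribosome, a few genes were called by DESeq2 but not by limma or edgeR. The first list held 23 genes, drawn up for factors of mitochondrial translation, transcription, DNA maintenance and protein quality. It included l(2)efl, a small heat shock protein gene (log2 fold change 0.70 in InRCA_HS against InRCA_noHS). Of the 23, limma and edgeR called 0 in any comparison. Their median log2 fold change was −0.14 between the heated groups, −0.03 in InRCA_HS against InRCA_noHS and −0.04 in InRCA_noHS against control_HS. The medians of all genes in this order were 0.00, −0.14 and 0.12, so that relative to them the factors were at −0.14, 0.11 and −0.16. EfTuM, which delivers aminoacyl-tRNAs to the mitochondrial ribosome, came closest. It had 763, 925 and 780 adjusted counts in control_HS, 608, 735 and 689 in InRCA_noHS, then 593, 536 and 567 in InRCA_HS. The 3 groups did not overlap, and the log2 fold change between the heated groups was −0.54 (limma adjusted p = 0.0785, DESeq2 adjusted p = 0.0291). It was the only factor that DESeq2 called between the heated groups. CG13163 (mIF3), an initiation factor, had 156, 212 and 157 in control_HS, 168, 171 and 165 in InRCA_noHS, then 258, 244 and 244 in InRCA_HS. Its InRCA_HS libraries lay above all 6 others, with log2 fold changes of 0.52 (limma adjusted p = 0.128) and 0.56 (limma adjusted p = 0.138) against control_HS and InRCA_noHS, and DESeq2 called it only against InRCA_noHS (DESeq2 adjusted p = 0.0172). Mitochondrial aminoacyl-tRNA synthetases charge the tRNAs used by this ribosome. Of 15 genes in a list drawn up for them, limma and edgeR called 0, with medians of 0.01, 0.03 and −0.12 in the same order. Relative to all genes these medians were 0.01, 0.17 and −0.24. In this list Aats-his (HisRS in the current annotation) had log2 fold changes of −0.57 and −0.66 against control_HS in InRCA_HS and InRCA_noHS (limma adjusted p = 0.243 and 0.126), and DESeq2 called the second of these lower (DESeq2 adjusted p = 0.0207). Its current symbol lacks the -m of most others in the list, and its mean adjusted count was 1090. It may therefore not be specific to mitochondria, which was not tested.

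The messages that this ribosome translates varied far more than its protein genes between the control libraries. Of 12 mitochondrially encoded genes in the table, limma, edgeR and DESeq2 called 0 in any comparison, and no interval lay within 2-fold. mt:CoI, which encodes a core subunit of cytochrome oxidase, had 12662, 53680 and 215140 adjusted counts in control_HS, 122000, 180450 and 72287 in InRCA_noHS, then 94944, 35342 and 85022 in InRCA_HS. Its SD was 107043 in control_HS, 54140 in InRCA_noHS and 31935 in InRCA_HS (n = 3), so the spread was widest in control_HS. The highest control library was 17 times the lowest, and this ratio was taken only in control_HS. Gene by gene, this ratio over the 3 control libraries had a median of 18.1 for the 10 mitochondrially encoded mRNAs (7.80 to 143). The median was 20.9 for all 12 mitochondrially encoded genes and 1.5 for the 71 members (1.06 to 3.77), against 1.51 for all genes. Ribosomal RNA was depleted before sequencing, so the values of mt:lrRNA and mt:srRNA are not levels of these RNAs.

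Cytosolic ribosomal protein genes encode the proteins of the other ribosome of the cell. In InRCA_HS against control_HS, limma called 9 of 87 lower and 0 higher (1.32% and 1.11% of all genes), edgeR called 12 lower (1.56%) and DESeq2 48 lower (4.58%), with a median log2 fold change of −0.64 and 83 of 87 below 0, beside a median of 0.00 and 35 of 71 below 0 for the mitochondrial ribosomal protein genes. The 9 of limma included RpL32, which had 18398, 22949 and 20407 adjusted counts in control_HS and 11303, 10468 and 8515 in InRCA_HS (log2 fold change −1.03, limma adjusted p = 0.0234). On the log2 scale the mean level of cytosolic ribosomal protein genes exceeded that of the members by 6.77 ± 0.136 in control_HS, 6.42 ± 0.229 in InRCA_noHS and 6.14 ± 0.07 in InRCA_HS (SD, n = 3). Every InRCA_HS library, at 6.06 to 6.19, lay below every control_HS library, at 6.69 to 6.93. In InRCA_HS against InRCA_noHS and in InRCA_noHS against control_HS 0 of the 87 were called in limma. Their median was −0.34 in both, where the medians of all genes were −0.14 and 0.12. Relative to all genes the cytosolic medians were thus −0.20 and −0.46. At an unadjusted p under 0.05 limma gave 4 and 23 of the 87 genes, where all genes gave 14.8% and 23.7%. In the same order edgeR called 0 and 4 lower (0.511% and 5.36% of all genes) and DESeq2 called 0 and 26 lower (1.2% and 7.7%).

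Nuclear genes of the respiratory chain, many of whose products are assembled with proteins made by the mitochondrial ribosome, were the other list compared. The list also held genes to which this does not apply, namely those of succinate dehydrogenase, Cyt-c-p and some assembly factors. Of 75, limma called 1 lower in InRCA_HS against control_HS (1.32% of all genes), ATPsyn-b (log2 fold change −0.72, limma adjusted p = 0.0499), a subunit of ATP synthase. The edgeR test called 0 lower (1.56%) and DESeq2 called 10 lower (4.58%). The median of the list was −0.32, with 65 of 75 below 0. In the other comparisons its medians were −0.15 and −0.18, beside −0.14 and 0.12 for all genes, and limma called 0. In InRCA_HS against InRCA_noHS edgeR and DESeq2 each called 1 higher (2.27% and 4.19% of all genes), and in InRCA_noHS against control_HS they called 5 and 8 lower (5.36% and 7.7%).

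**Figure D5:**
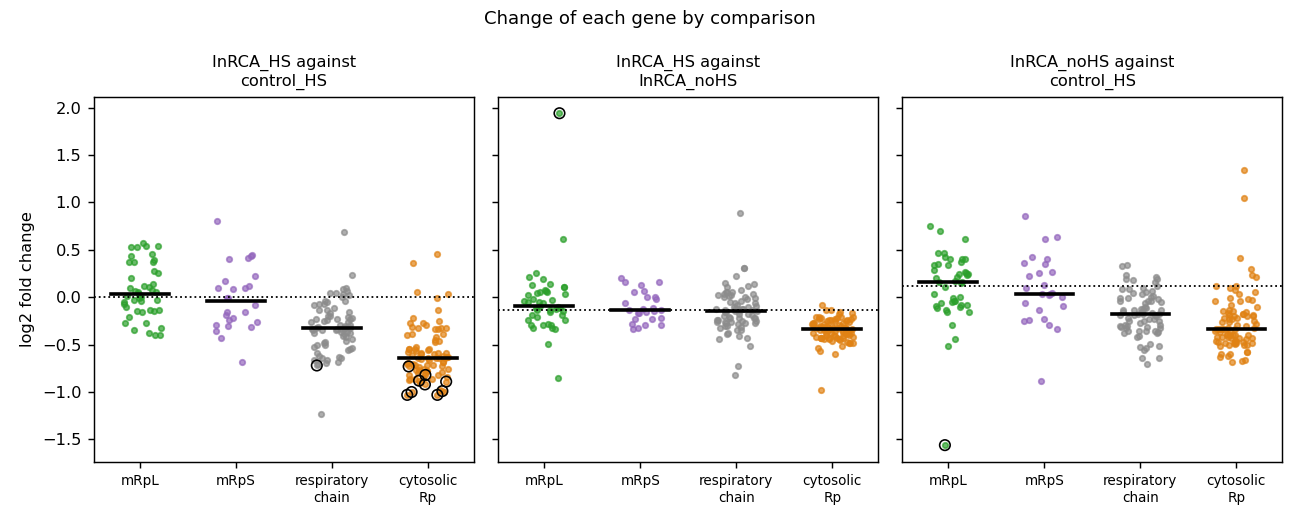
Log2 fold change of each gene in the 3 comparisons, for large (mRpL) and small (mRpS) mitochondrial ribosomal protein genes, nuclear respiratory chain genes and cytosolic ribosomal protein (Rp) genes. Black lines are medians, dotted lines the median of all genes, and rings mark genes with a limma adjusted p under 0.05: mRpL36 in both panels with InRCA_noHS, 9 cytosolic genes and ATPsyn-b in the first.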

How the data were processed

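For 10372 genes the table gave a single value in each library, a signal deposited by the authors and made from counts that they had brought to a common library size. It had 0 columns of other samples. Per the submitters' processing notes, the tools were TopHat 1.3.2, Bowtie 0.12.7 and Cufflinks 1.1.0, and the build was dm3. How reads were counted, on which annotation and with or without strand is not given in the sources used here. Undoing a quantile adjustment of negative binomial counts, with 1 factor per library and a dispersion of 0.0719 in the heated groups and 0.0612 in InRCA_noHS, turned 100% of the 38615 low values (100 or less) into whole reads within 0.1. The reverse step returned the table to within 0.0206% at most. InRCA_noHS thus appears to have been adjusted separately and, by the estimate with TMM scaling, to a larger size.

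Genes were compared with limma 3.58.1 in R 4.3.3 on log2(adjusted count + 1), with all 9 libraries, 3 group means, an intensity trend, and Benjamini-Hochberg adjustment over all genes at 0.05. This scale understates changes of genes with low values. A filter (mean of at least 1) removed 0 genes. edgeR 4.0.16 (quasi-likelihood, TMM) and DESeq2 1.42.0 were run on recovered reads. The recovery and tests were also tested on simulated data. Subunits were taken from symbols. Exon lengths, overlaps and neighbours came from Ensembl's annotation of a later build than dm3, matched by gene ID for 69 members and by symbol for 2, so no coordinates are given. Promoter and protein sequences were not analysed here.

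The members and lists were chosen with earlier results of these data known. Named were InR, members past the threshold, the 4 highest and 4 lowest log2 fold changes of a comparison, the 3 highest and lowest levels per kilobase of each subunit, the 3 members least correlated with the rest, and up to 4 genes of other lists by p, of which fewer are printed. Alternatives were pseudocounts of 0.1 and 5, other filters, quantile and TMM scaling, no trend, array weights, only the 6 libraries compared, a replicate block, the count tests, and each library left out. A block in edgeR, another subunit for 2 members and another class for 2 members were added after seeing the data.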

Additional observations from a re-analysis of the deposited data

How the results depend on the processing

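The counts of members called in InRCA_HS against control_HS (0) and InRCA_HS against InRCA_noHS (1 higher, 0 lower) were the same under every alternative run. In InRCA_noHS against control_HS the count of members called lower was 1, and it was 2 with quantile normalization, 3 with array quality weights, 2 with the replicate block, 2 with DESeq2, 2 with the replicate block in edgeR, and 1 to 4 with 1 library left out. mRpL36 was called under all of these, with limma adjusted p-values up to 0.0325 and log2 fold changes of −1.81 to −1.30 when a library was left out, and of 1.86 to 2.09 in InRCA_HS against InRCA_noHS. mRpS14 accounts for the second call, and the cause of its crossing was not tested. The difference between subunit medians was 0.02 to 0.11 in InRCA_HS against control_HS and 0.01 to 0.12 in InRCA_noHS against control_HS with 1 library left out. No called value changed direction, and the members' median in InRCA_HS against control_HS, 0.00, lay between −0.04 and 0.08 with 1 library left out. Same-numbered libraries of different groups did not deviate together (Pearson's r of −0.25 to 0.12, over 0.1 in 1 of 9 pairs), and some libraries correlated better with another number (up to 0.29), so the replicate number was not taken as a pairing. Over all genes, InRCA_HS against control_HS had 115 higher and 137 lower calls, with 30 and 26 from only the 6 libraries compared, 46 and 44 without the intensity trend, 322 and 447 in DESeq2 and 331 and 569 with array weights. Scaling moved the split of all calls: of those in InRCA_noHS against control_HS, 46.2% were higher as deposited, 28.9% with TMM scaling and 27.1% in edgeR. In InRCA_HS against InRCA_noHS they were 68.7%, 80.1% and 81.6%. With 3 libraries a group, the 95% interval of a member's change had a median half-width of 0.52 on the log2 scale, which is the typical precision of a single member.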
